A study of Mus musculus with 2 samples.

Results

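The secreted and membrane-bound proteases that cut the extracellular matrix and shed proteins from cell surfaces were followed, together with their tissue inhibitors, in 2 single-cell RNA libraries of mouse dorsal skin. Members were taken by symbol, as every gene of the count tables named Mmp or Timp with a number, Adamts, or Adam with a number. Of 27998 genes, 84 matched, and 59 were kept because they had at least 20 unique molecular identifiers (UMIs, each standing for 1 captured transcript) in cells that passed the quality limits. The kept members were 17 of 23 matrix metalloproteinases (MMPs), 4 of 4 tissue inhibitors of metalloproteinases (TIMPs), 15 of 33 ADAM genes, 18 of 19 ADAMTS genes and 5 of 5 ADAMTS-like genes. Just inside the limit was Adam1a with 23 UMIs, and just outside it was Mmp24 with 18. Of the 25 genes left out, 15 had 0 UMIs, most of them ADAM genes best known from testis.

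The IMQ library came from dorsal skin of wild type C57BL/6 mice, 2 months old, after 5 days of imiquimod, a TLR7 agonist put on the skin once a day to give a psoriasis-like inflammation. The Ctrl library came from dorsal skin of wild type C57BL/6 mice of the same age. Both are described as female. Whether the Ctrl skin received a vehicle, and how many animals stand behind a library, are not given in the sources used here. Cells were freed from minced skin with collagenase D and DNase before droplet capture with a 10x Genomics 3′ kit, so the cells had been treated with a bacterial matrix protease before their RNA was read.

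MMPs, ADAMs and ADAMTSs are zinc-dependent proteases made as inactive precursors. MMPs cut collagens and other matrix proteins, ADAMs mostly release growth factors, cytokines and receptors from the cell surface, and ADAMTSs trim procollagens and cleave proteoglycans such as aggrecan and versican. TIMPs bind the active site and block it, TIMP3 also that of several ADAMs and ADAMTSs. In skin these proteins are known for their part in wound closure, hair cycling and dermal remodelling. The ADAMTS-like proteins lack the protease domain, and ADAM11, ADAM22 and ADAM23 are known as adhesion proteins and not as active proteases, so the symbol rule takes in some genes that are not proteases.

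After removal of cells with under 200 genes or over 10% mitochondrial UMIs, 8499 IMQ and 10297 Ctrl cells remained, with a median of 12650 and 9596 UMIs. Each cell was given a lineage by counting marker genes, which put 3565 IMQ and 6752 Ctrl cells in the fibroblast gate, 1947 and 1432 in the keratinocyte gate, 170 and 280 in the pericyte and smooth muscle gate, 165 and 160 in the Schwann gate and 381 and 215 in the T cell gate. Macrophages and monocytes (332 IMQ and 81 Ctrl cells), lymphatic endothelium (142 and 45), dendritic and Langerhans cells (92 and 91), muscle and satellite cells (83 and 61) and NK and innate lymphoid cells (46 and 41) were fewer, and their values are low-number values. Neutrophils (259 IMQ and 5 Ctrl cells) and blood endothelium (120 and 28) were not compared. The 2 libraries share 23 cell barcodes.

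Levels are given as CPM, the UMIs of a gene summed over the cells of a lineage in 1 library for every 1000000 UMIs of those cells. A 3′ UMI count does not scale with transcript length. With 1 library per group there is no replicate and no test between IMQ and Ctrl. The 95% intervals given are exact and reflect counting error alone, without the variation between animals. A gene was called higher or lower when the IMQ level differed at least 2-fold from the Ctrl level, the interval of the ratio excluded equality and at least 20 UMIs were found over both libraries. Free RNA from broken cells gave each lineage 0.809% (IMQ pericytes and smooth muscle) to 2.55% (Ctrl Schwann cells) of the library's level of foreign markers across the 10 lineages compared, and a member's level is set against it where it was less than 3 times as high.

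Several of the members that differed between IMQ and Ctrl skin lie next to each other in a cluster of MMP genes on chromosome 9. Their start regions are shown because some neighbours in this cluster had the most UMIs in different cell types. AP-1, the Fos and Jun dimer known as a regulator of these genes in human and mouse, binds the letters TGANTCA, a pattern that reads the same on both strands. The windows run from 100 bases before a RefSeq start to 50 after it, on the plus strand of GRCm38.p6, with the AP-1 letters in capitals.
Mmp13 (collagenase 3), chr9:7272414-7272563: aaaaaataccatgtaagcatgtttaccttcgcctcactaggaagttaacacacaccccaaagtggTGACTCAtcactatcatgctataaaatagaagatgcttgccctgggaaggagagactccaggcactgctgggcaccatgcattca
Mmp12 (macrophage elastase), chr9:7347274-7347423: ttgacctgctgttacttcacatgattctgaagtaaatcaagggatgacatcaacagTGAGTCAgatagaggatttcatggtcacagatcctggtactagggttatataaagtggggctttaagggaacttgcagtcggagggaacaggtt
Mmp3 (stromelysin 1), chr9:7445722-7445871: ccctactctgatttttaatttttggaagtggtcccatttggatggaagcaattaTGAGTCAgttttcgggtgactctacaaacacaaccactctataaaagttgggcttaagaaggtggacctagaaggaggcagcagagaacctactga
Mmp10 (stromelysin 2), chr9:7502242-7502391: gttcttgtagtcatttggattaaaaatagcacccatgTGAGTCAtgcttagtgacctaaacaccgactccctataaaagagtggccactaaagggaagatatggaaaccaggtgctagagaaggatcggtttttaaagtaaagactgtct
Mmp8 (neutrophil collagenase), chr9:7558329-7558478: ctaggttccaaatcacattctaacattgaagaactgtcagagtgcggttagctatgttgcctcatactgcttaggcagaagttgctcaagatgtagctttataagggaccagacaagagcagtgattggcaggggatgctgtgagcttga
Mmp27, chr9:7571296-7571445: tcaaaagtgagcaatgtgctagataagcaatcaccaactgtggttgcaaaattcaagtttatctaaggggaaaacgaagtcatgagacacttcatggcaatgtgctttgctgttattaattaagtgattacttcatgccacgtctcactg

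In these 6 windows the letters began 35 bases before the start in Mmp13, 44 in Mmp12, 46 in Mmp3 and 63 in Mmp10. They were not in the windows of Mmp8 and Mmp27. Mmp12 has another RefSeq start whose window of 300 bases lacks the letters, and the window shown was chosen because it holds them. In windows of 300 bases (250 before and 50 after each start), 8 of the 10 genes of the cluster held them in at least 1 promoter, and 7.81% of all 32851 promoters did. Of the 59 kept members, 37 matched the RefSeq promoter table, with 41 promoters, and 5 of these held the letters, namely Adam19, Mmp3, Mmp10, Mmp12 and Mmp13. A match is a description of the sequence and not a binding site, and its absence says only that these letters are not in the window.

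The lineage with the most UMIs differed between some of these neighbours and was shared by others. Some cells also held more than 1 of them, such as 9 IMQ macrophages and monocytes with both Mmp12 and Mmp13. Mmp3 had 39162 of its 39297 lineage-assigned IMQ UMIs in fibroblasts, and Mmp27 had 2124 of 2142 there. Mmp12 had 972 of 1074 in macrophages and monocytes, and Mmp8 had 461 of 957 in neutrophils. Mmp13 had 289 of 458 and Mmp10 had 86 of 94 in keratinocytes, most of them from 1 cell described further on. Over all passing cells, Mmp13 had 505 UMIs in IMQ and 5 in Ctrl skin, Mmp12 had 1266 and 69, Mmp10 had 95 and 7, and Mmp8 had 1095 and 82. Mmp3 had 41722 IMQ and 36835 Ctrl UMIs, and Mmp27 had 2267 and 4080. The other 4 genes of the cluster (Mmp1a, Mmp1b, Mmp7 and Mmp20) had at most 2 UMIs in a library.

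**Figure D1:**
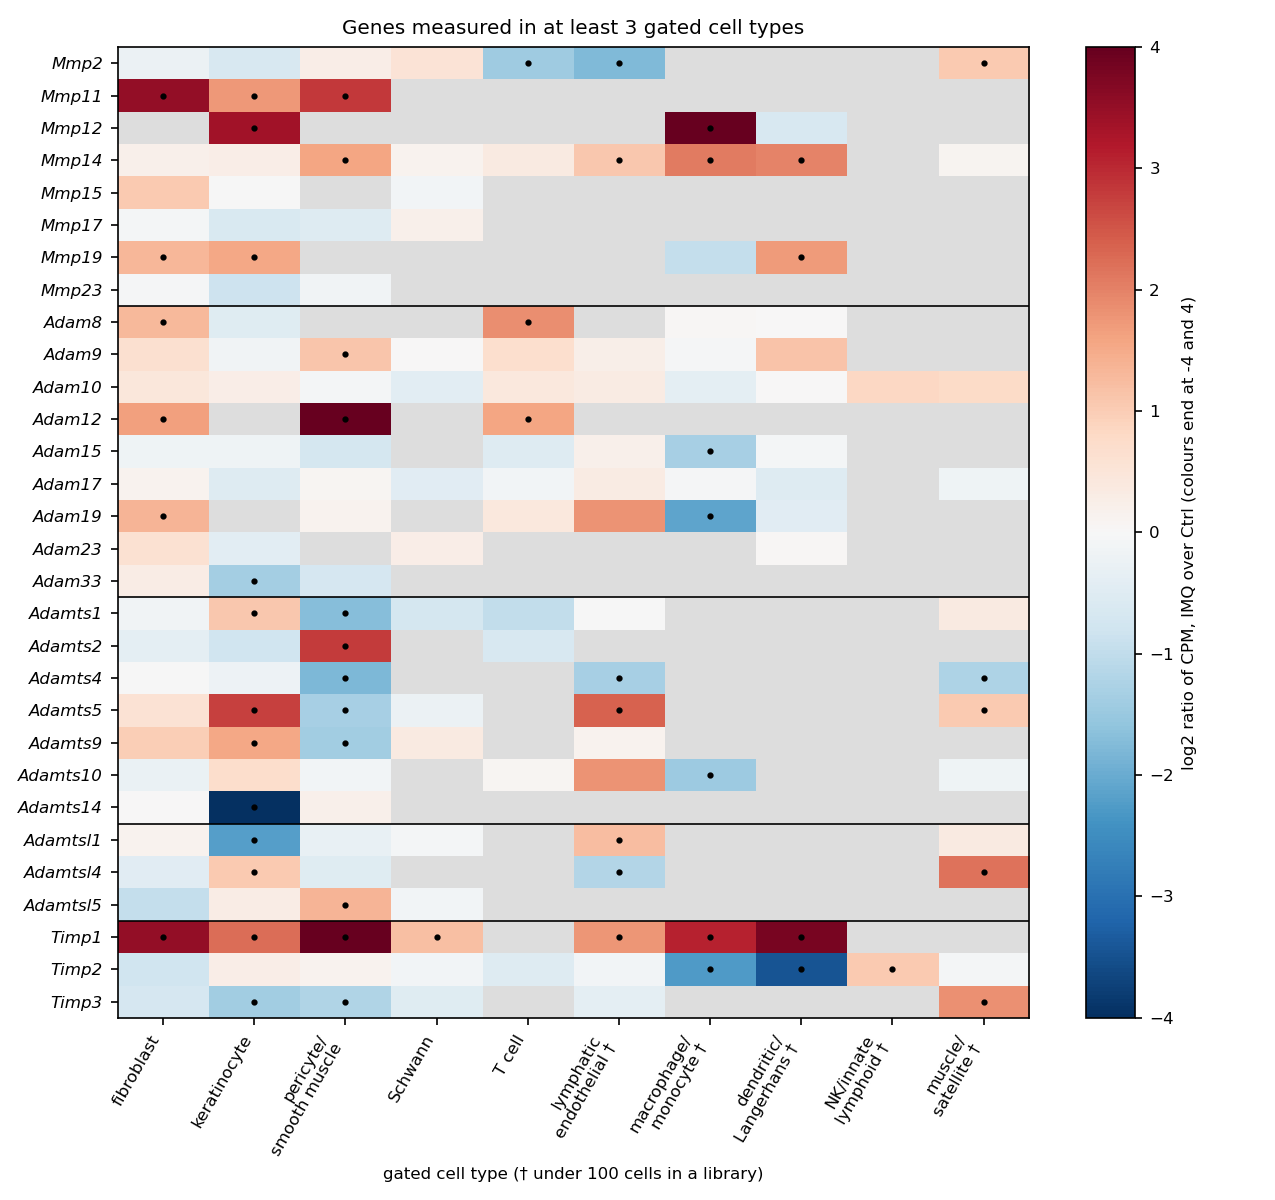
Log2 ratio of CPM, IMQ over Ctrl, for members (rows) in marker-gated lineages (columns), in colour, with grey for fewer than 20 UMIs over both libraries and a dot for a called difference. Ratios against 0 Ctrl UMIs are lower bounds. Timp1 was called higher in all 7 lineages where it was measured. In macrophages and monocytes that call rested on 1 Ctrl UMI, and in keratinocytes on levels near those of free RNA. Adamts1, Adamts5 and Adamts9 were higher in keratinocytes and lower in pericytes and smooth muscle.

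Fibroblasts held the most UMIs of a member for 43 of the 59 members in IMQ skin and for 46 of 59 in Ctrl skin. Keratinocytes held the most for 10 in IMQ and 6 in Ctrl skin, and neutrophils for 3 in IMQ skin. For 20 members in IMQ and 30 in Ctrl skin, over 90% of the assigned UMIs were in fibroblasts. The leading lineage was the same in both libraries for 46 of the 59. Timp4, a TIMP known for its restricted tissue range, had 784 of 854 IMQ and 259 of 280 Ctrl UMIs in pericytes and smooth muscle. Melanocytes (16 IMQ and 17 Ctrl cells) were not among the lineages ranked by level. Of those ranked, Schwann cells had the highest levels of Adamts20, known for its part in melanoblast development, and of Mmp15, a membrane-type MMP. Adamts20 was at 61.4 CPM in IMQ and 88.6 in Ctrl Schwann cells, and Mmp15 at 90.5 and 98.0 CPM.

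Over all passing cells, 17 members were called higher and 8 lower in IMQ skin, where 13.1% of 16906 measured genes were called higher and 5.96% lower. This view mixes changes in the number of cells of each lineage with changes in RNA per cell, which cannot be told apart in it, so the lineages are described one by one. In at least 1 of 10 lineages 57 members were measured and 46 were called, where 49.5% of 16036 measured genes were called. Called higher in at least 3 lineages were 6 members, where 2.19% of the measured genes were. These were Timp1 (7 of 7 lineages measured), Mmp14 (4 of 9), Mmp19 (3 of 4), Adam12 (3 of 3), Mmp11 (3 of 3) and Adamts5 (3 of 6, and lower in 1). The keratinocyte levels of Timp1, Mmp11 and Mmp19 among these were under 3 times those of free RNA. In macrophages and monocytes the Timp1 call rested on 1 Ctrl UMI. Adamts4 was called lower in 3 of 5 lineages and higher in 0.

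In fibroblasts the inhibitors moved apart. Timp1 (chrX:20870166-20874735), a secreted inhibitor of most MMPs, reached 639 CPM (632 to 646) in IMQ and 55.8 CPM (54.1 to 57.5) in Ctrl fibroblasts. That is 33087 against 4012 UMIs, found in 2720 of 3565 and 2107 of 6752 cells, and an 11.4-fold higher level (11.1 to 11.8). Timp2, which also takes part in the activation of pro-MMP2 by MMP14, was at 1528 CPM in IMQ and 2645 CPM in Ctrl fibroblasts, 1.73-fold lower (1.72 to 1.75) and so short of a call. Scaled by size factors in place of total UMIs, its log2 ratio was -1.06, which is past 2-fold. Timp3, the inhibitor that is held in the matrix, was at 255 CPM in IMQ and 407 CPM in Ctrl fibroblasts, 1.59-fold lower (1.56 to 1.63). Timp4 had under 20 UMIs there. Summed, the TIMP genes stood at 2422 CPM in IMQ and 3108 CPM in Ctrl fibroblasts, with Timp2 the larger part in both.

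Among 51 members measured in fibroblasts, 16 were called higher and 2 lower, beside 11.2% of 14567 genes called higher and 4.46% lower. Log2 ratios had a median of 0.46 over the members and of 0.26 over all measured genes. Type I collagen made up more of the Ctrl counts, with Col1a1 at 11910 CPM in IMQ and 45900 CPM in Ctrl fibroblasts. Its part in these medians was not tested.

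Of the MMPs, those with the highest levels differed by less than 2-fold. Mmp2 (gelatinase A) was at 1256 CPM in IMQ and 1493 CPM in Ctrl fibroblasts, 1.19-fold lower (1.18 to 1.2). Mmp14, the membrane-type enzyme that activates MMP2, was at 617 and 532 CPM, 1.16-fold higher (1.14 to 1.18). Mmp3, which cuts proteoglycans and activates other MMPs, was at 756 and 482 CPM, 1.57-fold higher (1.55 to 1.59). The called differences were at lower levels. Mmp11 (stromelysin 3, known from stroma around involuting and invasive epithelium) was at 75.3 CPM in IMQ and 6.61 CPM in Ctrl fibroblasts, 11.4-fold higher (10.4 to 12.6), with 3899 against 475 UMIs. Mmp19 was at 72.2 and 28.8 CPM, 2.51-fold higher (2.38 to 2.65). Mmp8 was at 5.58 and 0.932 CPM, 5.99-fold higher (4.58 to 7.93), in 139 IMQ and 55 Ctrl cells. Mmp23 was at 187 and 194 CPM and Mmp27 at 41.0 and 53.7 CPM, neither called. Summed over the family, the MMPs stood at 3021 CPM in IMQ and 2805 CPM in Ctrl fibroblasts.

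The ADAM genes with the best known sheddases were not among those called. Adam17, which releases TNF and EGF receptor ligands, was at 60.6 CPM in IMQ and 54.6 CPM in Ctrl fibroblasts, and Adam10, the Notch sheddase, at 47.2 and 34.2 CPM. Adam12, known from regenerating and fibrotic connective tissue, was at 15.7 and 5.03 CPM, 3.11-fold higher (2.75 to 3.53). Adam19 was at 32.2 and 12.5 CPM, 2.57-fold higher (2.37 to 2.79), and its log2 ratio fell just short of 1, at 0.97, when each cell was weighted equally. Adam5, Adam8, Adam11, Adam30 and Adamts20 were also called higher, each with under 100 UMIs over both libraries.

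The ADAMTS family split by gene. Adamts15, an aggrecanase and versicanase, was at 49.1 CPM in IMQ and 6.05 CPM in Ctrl fibroblasts, 8.11-fold higher (7.33 to 9.003). Adamts7, which cuts COMP, was at 7.14 and 0.987 CPM, 7.23-fold higher (5.60 to 9.46). Adamts18 was at 5.17 and 0.960 CPM, 5.39-fold higher (4.12 to 7.13), and Adamts6, with 1.99 and 0.946 CPM, was 2.10-fold higher (1.53 to 2.90). Scaled by size factors, 15 of the 16 higher calls in fibroblasts were kept, and that of Adamts6 was not. Called lower were Adamts17, at 2.24 and 6.56 CPM (2.93-fold, 2.39 to 3.62), and Adamts16, at 0.521 and 2.57 CPM (4.94-fold, 3.29 to 7.69). The members with the highest levels were called in neither direction. Adamts2, the procollagen N-proteinase, was at 608 CPM in IMQ and 801 CPM in Ctrl fibroblasts. Adamts5 was at 572 and 384 CPM, and Adamts1 at 501 and 558 CPM. Of the ADAMTS-like genes, Adamtsl2, a fibrillin-binding protein, was at 22.4 and 5.91 CPM, 3.79-fold higher (3.39 to 4.24), and Adamtsl5 was at 27.5 and 53.3 CPM, 1.94-fold lower (1.82 to 2.06).

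**Figure D2:**
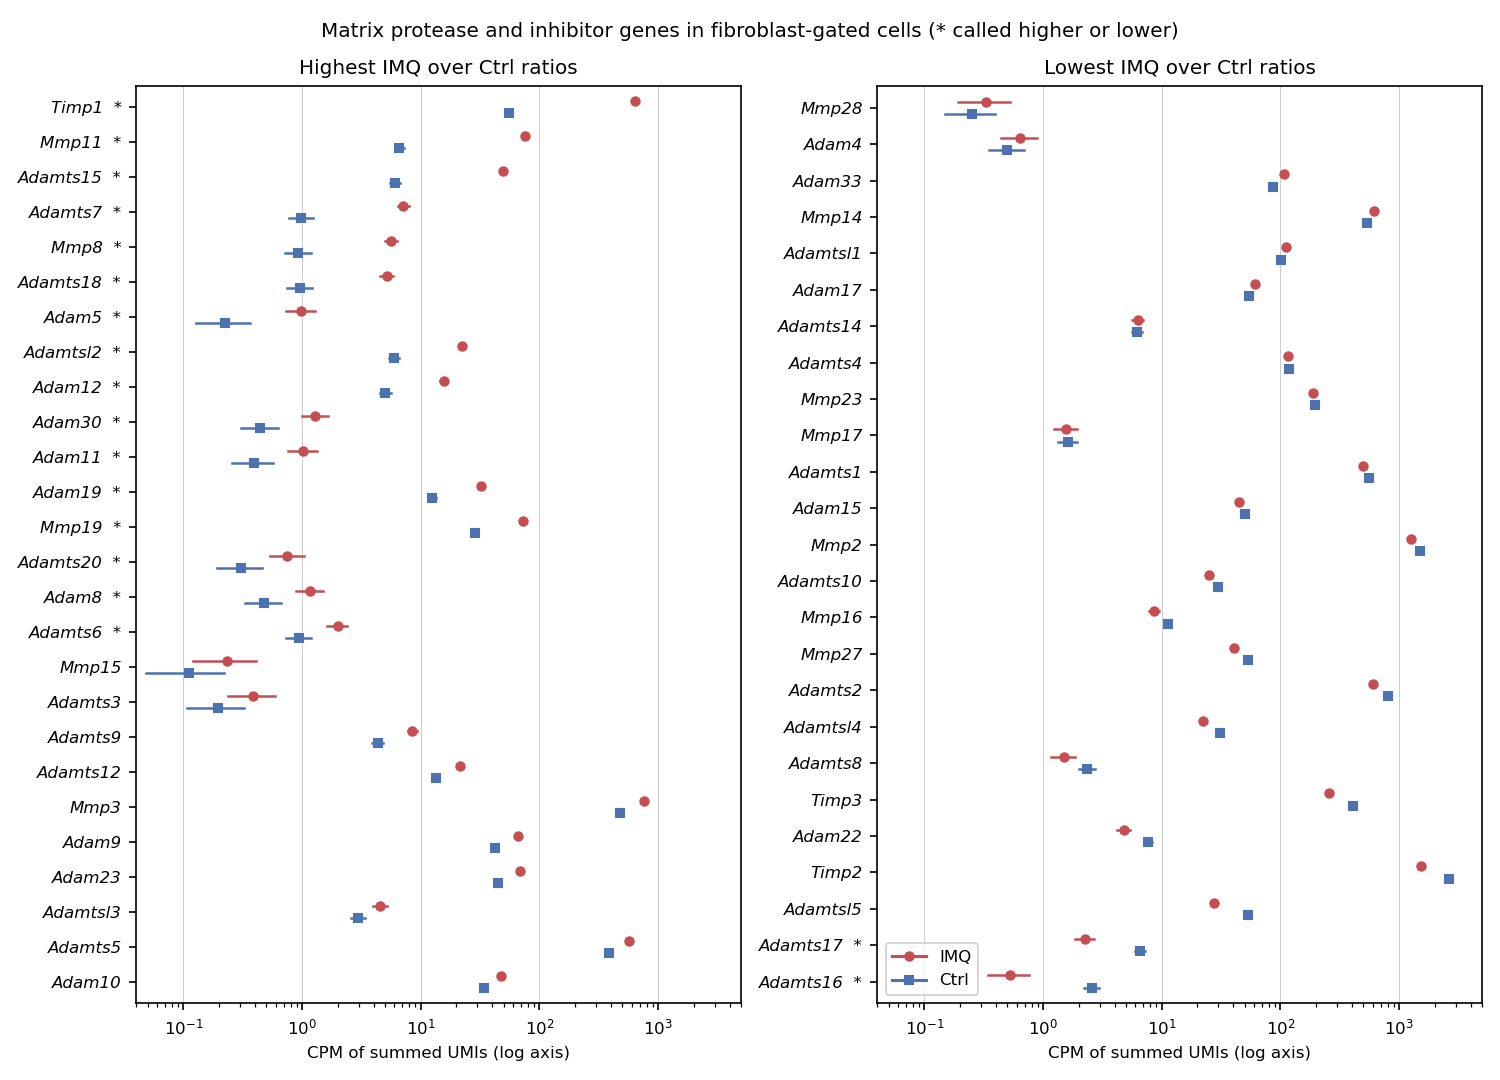
CPM of named members in fibroblast-gated cells (log axis) in IMQ and in Ctrl skin, with exact 95% counting intervals. Timp1, Mmp11 and Adamts15 stood 11.4, 11.4 and 8.11 times as high in IMQ fibroblasts, while Mmp2, Timp2 and Adamts2, at over 600 CPM, were within 2-fold.

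The 2 libraries held largely different fibroblasts. When the fibroblasts were clustered, only 5 of 13 subclusters held at least 50 cells of each library, with 34.08% of the IMQ and 22.07% of the Ctrl fibroblasts, so differences over all fibroblasts include differences between subclusters. The leading genes of the 5 were Tagln and Acta2 (subcluster 0), Lor, Lce1m, Crct1, Asprv1, Gdf10 and Calm4, all but Gdf10 being genes of cornifying keratinocytes (4), Coch and Fmod (6), Thbs4, Col8a1 and Cilp (7) and Prlr and Slc26a7 (9). In the cells of these 5 subclusters together, 9 of 47 measured members were called higher and 0 lower, beside 9.74% and 4.16% of 13064 genes, and 7 of the 16 members called higher in all fibroblasts were among them (Timp1, Mmp11, Adamts15, Adamts7, Adamts6, Adam12 and Adam30). Ratios of some of these were smaller than over all fibroblasts, with 4.95-fold (4.09 to 6.03) for Mmp11, 3.80-fold (3.09 to 4.70) for Adamts15 and 2.67-fold (1.87 to 3.87) for Adamts7. Adamtsl2 was 1.93-fold higher (1.66 to 2.25) there and not called. Mmp3, at 402 CPM in IMQ and 161.5 CPM in Ctrl cells, was called higher there, at 2.49-fold (2.37 to 2.61).

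Timp1 was called higher in each of the 5 shared subclusters, by 6.33-fold in the cells led by Lor and Gdf10 to 12.6-fold in those led by Prlr, and by at least 7.33-fold in the 4 other than the Lor-led one. Its level ranged more widely between subclusters than these ratios did, with 25.9 CPM in IMQ and 2.05 CPM in Ctrl cells of subcluster 9, and 1027 and 162 CPM in subcluster 4. Adam12 was called higher in 4 of the 4 where it was measured, Mmp11 in 4 of 5 and Adamts15 in 3 of 5. Timp2 was below equality in 5 of 5, with log2 ratios between -1.20 and -0.14, and was called lower in 1. Timp3 and Mmp3 differed in direction between subclusters. Timp3 was called higher in 1 of the 5, the Lor-led subcluster 4 (log2 ratio 1.41), where the part of keratinocyte RNA was not tested, and lower in subclusters 6 and 7, down to -1.57 in subcluster 6. Mmp3 was called higher in subcluster 7 (1.31) and lower in subcluster 6 (-1.16). Adamts17, called lower over all fibroblasts, had a log2 ratio of 1.11 in subcluster 7, and Adamtsl2, called higher over all fibroblasts, had -0.40 in subcluster 6 and -1.50 in subcluster 9. Adam19 and Mmp19 were not called over the shared cells, with log2 ratios of 0.97 and 0.86.

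**Figure D3:**
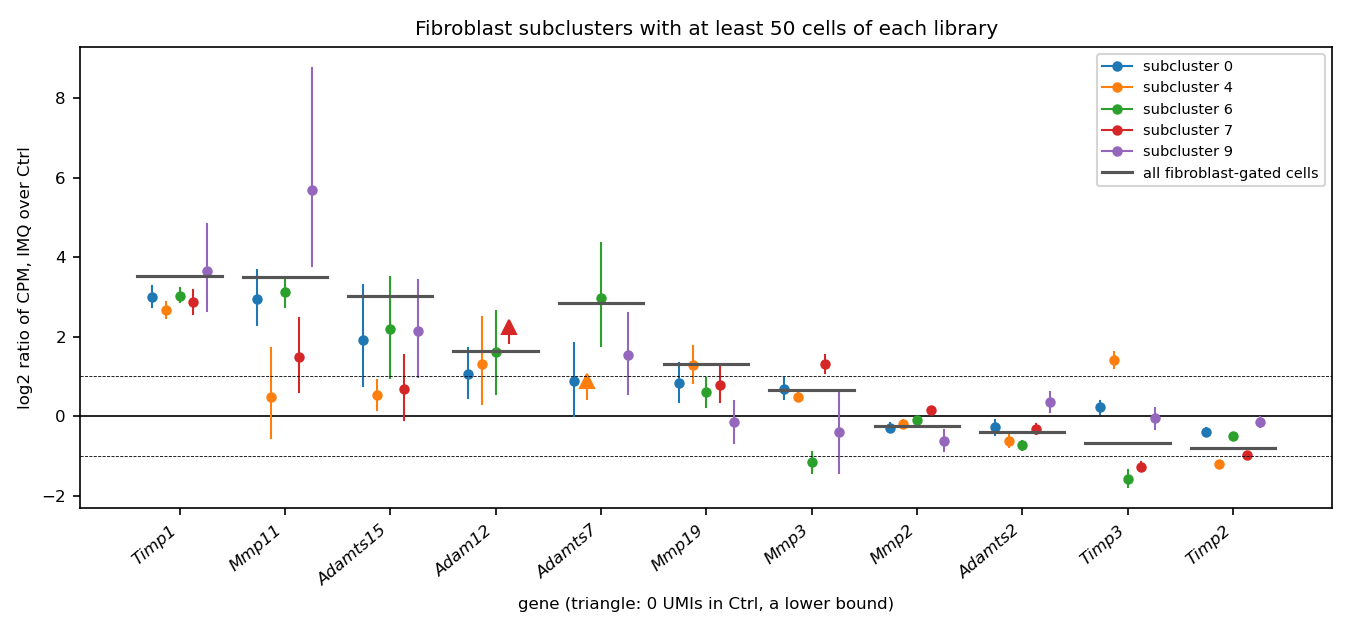
Log2 ratio of CPM, IMQ over Ctrl, in each fibroblast subcluster that held at least 50 cells of each library (points with 95% counting intervals) and in all fibroblast-gated cells (grey bars). Triangles, labelled as lower bounds, are ratios against a floor of 3 counts where Ctrl had 0 UMIs, as for Adam12 in subcluster 7. Timp1 lay between 2.66 and 3.66 in all 5 subclusters and Timp2 below 0 in all 5, whereas Timp3 and Mmp3 took both signs.

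In keratinocytes the ADAMTS genes differed in summed level by over 2-fold. Their summed level was 380 CPM in IMQ and 175 CPM in Ctrl keratinocytes, and 6 of 11 measured were called higher and 1 lower. Most of the sum in both libraries came from Adamts1 alone. Within basal and within suprabasal cells Adamts1 was 1.64-fold and 1.83-fold higher, called in neither. Over all members, 15 of 40 were called higher and 7 lower, beside 12.4% of 13684 genes called higher and 10.1% called lower. The median log2 ratio was 0.25 over the members and 0.05 over all genes. Of the calls, 3 of the higher ones (Timp1, Mmp11 and Mmp19) and 3 of the lower ones (Adam33, Adamtsl1 and Mmp3) rested on levels under 3 times those of free RNA. Timp1 stood at 2.46 CPM in IMQ and 0.526 CPM in Ctrl keratinocytes, against 2.25 and 0.450 CPM from free RNA, so no keratinocyte level of its own could be told from it. The 2 libraries held different keratinocytes: of 11 subclusters, 0 held at least 50 cells of each library, so no member could be compared within a shared one, and differences over the gate include differences between subclusters. The nearest to it here is the split into basal and suprabasal cells, which was chosen after the values were seen.

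Adamts1 (chr16:85793827-85803113) and Adamts5 (chr16:85856173-85901828), versican- and aggrecan-cutting enzymes whose genes lie near each other on the same strand, were both called higher. Adamts1 was at 329 CPM (324 to 333) in IMQ and 157 CPM (153 to 162) in Ctrl keratinocytes, 2.09-fold higher (2.03 to 2.16). This is just past the limit, and the log2 ratio was 0.71 in cells with an excess of basal keratins and 0.87 in cells with an excess of suprabasal keratins. Adamts5 was at 31.7 and 4.74 CPM, 6.69-fold higher (5.64 to 7.98), in 654 of 1947 IMQ and 104 of 1432 Ctrl cells. Its log2 ratio was 2.83 in basal and 2.86 in suprabasal cells, and 0.92 in the keratinocytes of an alternative clustering. Adamts9, a versican-cutting enzyme, was at 10.1 and 3.45 CPM, 2.93-fold higher (2.38 to 3.65). It was mainly a basal gene, at 12.8 CPM in IMQ and 6.84 CPM in Ctrl basal cells, and with the larger share of basal cells in the IMQ gate (1533 basal and 414 suprabasal cells, against 656 and 776 in Ctrl) the log2 ratio within basal cells was 0.91, short of a call.

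Adamts17 was at 2.86 CPM in IMQ and 0.658 CPM in Ctrl keratinocytes, 4.34-fold higher (2.73 to 7.30), which is the opposite direction to the fibroblasts. Adamts19 had 61 UMIs in 46 IMQ keratinocytes and 0 in Ctrl ones, which is 10.6-fold higher against a floor of 3 counts. Lower were Timp3, at 29.9 and 79.0 CPM (2.65-fold, 2.49 to 2.82), and Adamts14, a procollagen N-proteinase related to Adamts2, at 0.188 and 3.65 CPM (19.4-fold, 10.4 to 39.98). Both were lower in basal and in suprabasal cells alike. Mmp28 (epilysin, first described in keratinocytes) was at 0.376 and 1.28 CPM and was called lower, on 61 UMIs in all.

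The sheddases were present and not called. Adam10 was at 54.2 CPM in IMQ and 45.2 CPM in Ctrl keratinocytes, and Adam17 at 34.7 and 49.5 CPM. Timp2 was at 34.3 CPM in IMQ and 28.8 CPM in Ctrl keratinocytes, where free RNA could give 5.66 and 21.0 CPM. Its log2 ratio was 0.46 in basal cells, whereas in suprabasal cells it was called lower, at 12.9 CPM in IMQ and 28.4 CPM in Ctrl cells (-1.14).

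The keratinocyte counts of Mmp13, Mmp9 and Mmp10, enzymes known from the migrating edge of wounded epidermis, came mostly from 1 IMQ cell. Mmp13 had 289 UMIs in IMQ and 4 in Ctrl keratinocytes, with 208 in that cell. Mmp9 (gelatinase B) had 138 against 1 UMI, with 126 in it, and Mmp10 had 86 against 4, with 74 in it. The cell held 54322 UMIs in all, among them 702 of Krt14 and 199 of Krt5, 1 of Col1a1 and 0 of Ptprc and Lyz2, which mark leukocytes. Without it, the IMQ keratinocytes held 81 UMIs of Mmp13, 12 of Mmp9 and 12 of Mmp10. Mmp12 had 59 UMIs against 0, of which 55 were in another cell that also held 9 UMIs of Ptprc and 355 of Krt14. When the cell with the most UMIs of a member was left out of each library, 12 of the 15 higher calls in keratinocytes were kept, Mmp9, Mmp10 and Mmp12 falling under 20 UMIs. Mmp10, Mmp12 and Adamts19 in keratinocytes were singled out after their values were seen.

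Pericytes and smooth muscle cells had members called in both directions. Of 30 measured members, 9 were called higher and 6 lower, beside 8.04% of 9578 genes called higher and 8.19% lower. Over the members the log2 ratio had a median of 0.01, and over all genes of 0.04. The summed ADAMTS level was 1307 CPM in IMQ and 3248 CPM in Ctrl cells, with 5 of 10 measured genes called lower and 2 higher. The summed TIMP level was 1308 and 1353 CPM, although its 4 genes differed.

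Adamts1 was at 558 CPM (525 to 592) in IMQ and 1807 CPM (1750 to 1865) in Ctrl cells of this gate, 3.24-fold lower (3.03 to 3.47). Adamts4 (chr1:171250421-171260637), an aggrecanase, was at 220 and 773 CPM, 3.51-fold lower (3.16 to 3.92). Adamts9 was at 89.1 and 234 CPM, 2.63-fold lower (2.21 to 3.14). These enzymes were thus lower together in the gate where Ctrl skin had its highest level of Adamts1 among the gates ranked. Adamts5 was at 128 and 322 CPM, 2.52-fold lower (2.17 to 2.92), and Adamts8 was at 9.72 and 40.05 CPM, 4.12-fold lower (2.48 to 7.18). Adamts2 went the other way, at 235 CPM in IMQ and 33.9 CPM in Ctrl cells, 6.95-fold higher (5.41 to 9.06).

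Of the inhibitors, Timp1 was at 160 CPM (142 to 178) in IMQ and 4.29 CPM (1.96 to 8.15) in Ctrl cells of this gate, 37.2-fold higher (19.4 to 82.1), on 312 against 9 UMIs. Timp4 was at 401 and 124 CPM, 3.25-fold higher (2.82 to 3.75), and Timp3 at 396 and 907 CPM, 2.29-fold lower (2.11 to 2.49). Timp2, at 351 and 318 CPM, was not called. Mmp14 was at 121 and 40.5 CPM, 2.99-fold higher (2.33 to 3.88), and Adam9, a broadly found sheddase, at 114 and 52.9 CPM, 2.16-fold higher (1.71 to 2.73). Adam12, Mmp11, Adamts12 and Adamtsl5 were also called higher, each on under 100 UMIs.

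The make-up of this gate differed between the libraries. Rgs5, a pericyte marker, was at 3051 CPM in IMQ and 1039 CPM in Ctrl cells, and Myh11, a smooth muscle myosin, at 3546 and 5328 CPM. The gate was therefore split, after its values were seen, into cells with more Rgs5 (71 IMQ and 59 Ctrl cells) and cells with more Myh11 UMIs (97 and 220). Adamts1 had log2 ratios of -2.89 and -1.38 in the Rgs5 and the Myh11 cells, Adamts4 of -2.76 and -1.61, Adamts9 of -2.30 and -1.29 and Timp3 of -1.82 and -1.13. Timp1, Timp4, Adamts2 and Adam9 were called higher in both kinds of cell. Adamts5 was called lower in the Myh11 cells (-1.03) and had 0.05 in the Rgs5 cells, and Mmp14 was called higher in the Rgs5 cells (1.94) and had 0.72 in the Myh11 cells. Fibroblast markers summed to 2513 CPM in IMQ and 1895 CPM in Ctrl cells of the whole gate, with 2 of the 12 at 0 in IMQ, and their part in these ratios was not tested.

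**Figure D4:**
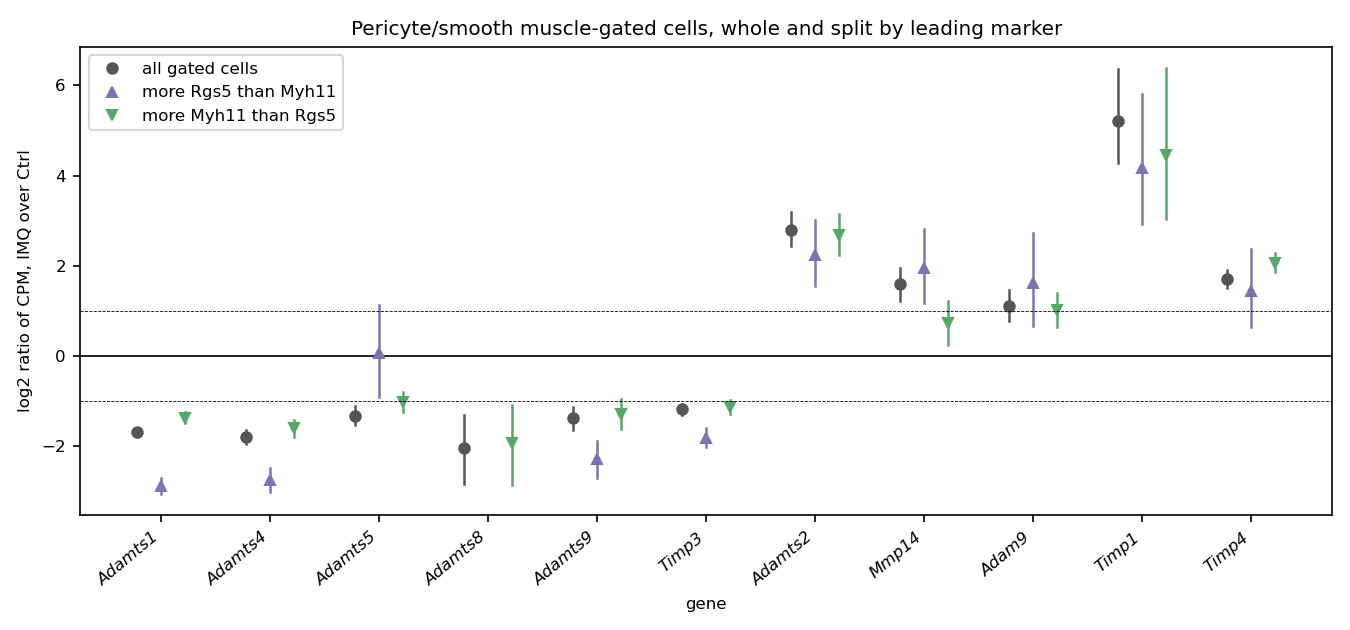
Log2 ratio of CPM, IMQ over Ctrl, with 95% counting intervals, in pericyte and smooth muscle cells with more Rgs5 than Myh11 UMIs and with more Myh11 than Rgs5 UMIs. Adamts1, Adamts4, Adamts9 and Timp3 lay at or below -1.13 in both, Timp1 above 4 in both, and Adamts5 at 0.05 in the Rgs5 cells and -1.03 in the Myh11 cells.

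In lymphatic endothelium, where Ctrl skin gave 45 cells, 4 of 18 measured members were called higher and 3 lower, beside 4.45% of 8022 genes called higher and 1.99% lower. Adamts5 was at 338 CPM in IMQ and 65.5 CPM in Ctrl cells, 5.16-fold higher (3.51 to 7.90), and its log2 ratio was 2.37 over all cells and 3.21 without the highest cell of each library. Adamtsl1 was at 246 and 104 CPM, 2.36-fold higher (1.72 to 3.30), and Mmp14 at 145 and 68.0 CPM, 2.13-fold higher (1.44 to 3.27). Timp1 was the other member called higher. Adamts4 was at 41.5 and 104 CPM, 2.52-fold lower (1.68 to 3.73), the same direction as in the pericyte gate. Timp3 had its highest level of the gates ranked here, 2247 CPM in IMQ and 2924 CPM in Ctrl cells, and was not called.

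Schwann cells and T cells had few calls. In Schwann cells 1 of 17 members was called higher and 0 lower, beside 2.95% of 6815 genes called higher and 2.33% lower. That member was Timp1, at 90.5 CPM in IMQ and 39.6 CPM in Ctrl cells, 2.29-fold higher (1.36 to 3.98). Macrophage markers summed to 580 CPM in IMQ and 172 CPM in Ctrl cells of the Schwann gate and fibroblast markers to 1947 and 3541 CPM, and their part in the Timp1 ratio was not tested. Adam10, at 241 and 326 CPM, Adam23, at 160 and 134 CPM, and Timp3, at 1298 and 1805 CPM, were not called. In T cells 2 of 14 were called higher and 1 lower, beside 7.58% of 8348 genes called higher and 6.79% lower. Adam8, a sheddase of leukocytes that cuts L-selectin, was at 47.0 CPM in IMQ and 13.0 CPM in Ctrl T cells, 3.62-fold higher (1.94 to 7.48). Adam12 was at 24.9 and 8.26 CPM, 3.01-fold higher (1.37 to 7.85), and was singled out after its value was seen. The member called lower, Mmp2, stood below the level that free RNA could give in Ctrl cells.

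Macrophages and monocytes had the strongest differences among leukocytes. Of 15 measured members, 5 were called higher and 5 lower, beside 5.61% of 7786 genes called higher and 9.52% lower. Mmp12 was at 418 CPM (392 to 445) in IMQ and 14.7 CPM (5.38 to 31.9) in Ctrl cells, 28.5-fold higher (13.1 to 77.9), with 972 against 6 UMIs. Its UMIs were in 26 of 332 IMQ cells, 271 of them in 1 cell and 727 in the top 5. The cell with 271 held 10359 UMIs in all, among them 6 of Lyz2, 3 of Cd68 and 0 of Ptprc, Krt14 and Col1a1. Mmp13 had 158 UMIs in 14 IMQ cells and 0 in the 81 Ctrl cells, which is 9.27-fold higher against a floor of 3 counts. Of these UMIs 147 were in 5 cells, and the log2 ratio against the floor was 3.21 with and 2.70 without the highest cell. Mmp8 was at 87.8 CPM in IMQ and 19.6 CPM in Ctrl cells, 4.49-fold higher (2.24 to 10.5), and it was spread more evenly, over 91 cells with at most 8 UMIs each. Mmp14 was at 61.5 and 14.7 CPM, 4.196-fold higher (1.88 to 11.6). Timp1 was at 20.65 and 2.443 CPM, 8.45-fold higher (1.446 to 340.7), on 48 against 1 UMI. Mmp9 was lower, at 2.15 CPM in IMQ and 166 CPM in Ctrl cells, 77.2-fold (31.5 to 246), on 5 against 68 UMIs. Timp2 was at 127 and 618 CPM, 4.85-fold lower (4.09 to 5.76), and Adam15 at 70.6 and 178 CPM, 2.53-fold lower (1.89 to 3.35).

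The macrophage gate also changed in make-up. C1qa, a gene of resident macrophages, was at 1067 CPM in IMQ and 2698 CPM in Ctrl cells, and Ly6c2, a monocyte gene, at 296 and 149.1 CPM. The markers of neutrophils summed to 690 CPM in IMQ and 156 CPM in Ctrl cells of this gate, and their part in the Mmp8 ratio was not tested. The gate was split, after its values were seen, into cells with at least 3 UMIs of the C1q genes (100 IMQ and 57 Ctrl cells) and cells with fewer (232 and 24). Mmp12 had log2 ratios of 4.94 in the C1q cells, on 413 against 4 UMIs, and 4.89 in the others, on 559 against 2. Timp2 had -1.75 and -1.33, called lower in both. Mmp8 was called higher in the others, at 124.5 CPM in IMQ and 50.9 CPM in Ctrl cells (2.45-fold, 1.22 to 5.75). In the C1q cells it had 20 IMQ and 0 Ctrl UMIs, 1.99-fold higher against a floor of 3 counts and just short of a call. Against a floor of 3 counts, Mmp13 was 10.5-fold higher in the C1q cells (interval from 8.41). In the others its log2 ratio against the floor was 0.88, short of a call. Mmp9 was found in the C1q cells only, at 5.91 CPM in IMQ and 270 CPM in Ctrl cells. Adam15 was called lower in the C1q cells (-1.36) and had -0.08 in the others. Timp1, called higher in the whole gate, was called in neither part, with 16 against 0 UMIs in the C1q cells and 32 against 1 in the others.

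Dendritic and Langerhans cells had Timp1 at 87.7 CPM in IMQ and 6.28 CPM in Ctrl cells, 14.0-fold higher (5.26 to 52.4), and Mmp14 at 55.7 and 14.1 CPM, 3.94-fold higher (1.93 to 9.09). Macrophage markers summed to 1059 CPM in IMQ and 3503 CPM in Ctrl cells of this gate, those of neutrophils to 1140 and 324 CPM and those of keratinocytes to 801 and 294 CPM, and their part in these ratios was not tested. In all, 3 of 12 measured members were called higher there and 1 lower, beside 7.4% of 6337 genes called higher and 4.75% lower. Mmp12, which these cells held in Ctrl skin more than macrophages did, was at 37.2 CPM in IMQ and 58.1 CPM in Ctrl cells and was not called. In muscle and satellite cells 4 of 12 were called higher and 1 lower, beside 5.26% of 3994 genes called higher and 3.93% lower. Adamts5 was at 264 CPM in IMQ and 129 CPM in Ctrl cells there, and Adamts4 at 62.6 and 147 CPM. In NK and innate lymphoid cells 1 of 2 measured members was called higher and 0 lower, beside 9.61% of 3133 genes called higher and 7.31% lower. That member was Timp2, at 183.5 CPM in IMQ and 88.1 CPM in Ctrl cells. It had 53 IMQ UMIs, 21 of them in 1 cell, and 15 Ctrl UMIs.

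Neutrophils were nearly all from IMQ skin. The 5 Ctrl neutrophils held 4 UMIs of Mmp9 (428 CPM, 117 to 1095), 6 of Adam8 and 2 each of Mmp8 and Timp2, and were not compared. Mmp9 was at 555 CPM (509 to 605), Mmp8 at 483 CPM, Adam8 at 315 CPM and Timp2 at 278 CPM in 259 IMQ neutrophils. MMP8 and MMP9 are stored in neutrophil granules. In IMQ skin the UMIs of Mmp9 were mostly in neutrophils (530 of 680), whereas in Ctrl skin they were mostly in macrophages and monocytes (68 of 99). The part of the number of neutrophils in this was not tested.

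**Figure D5:**
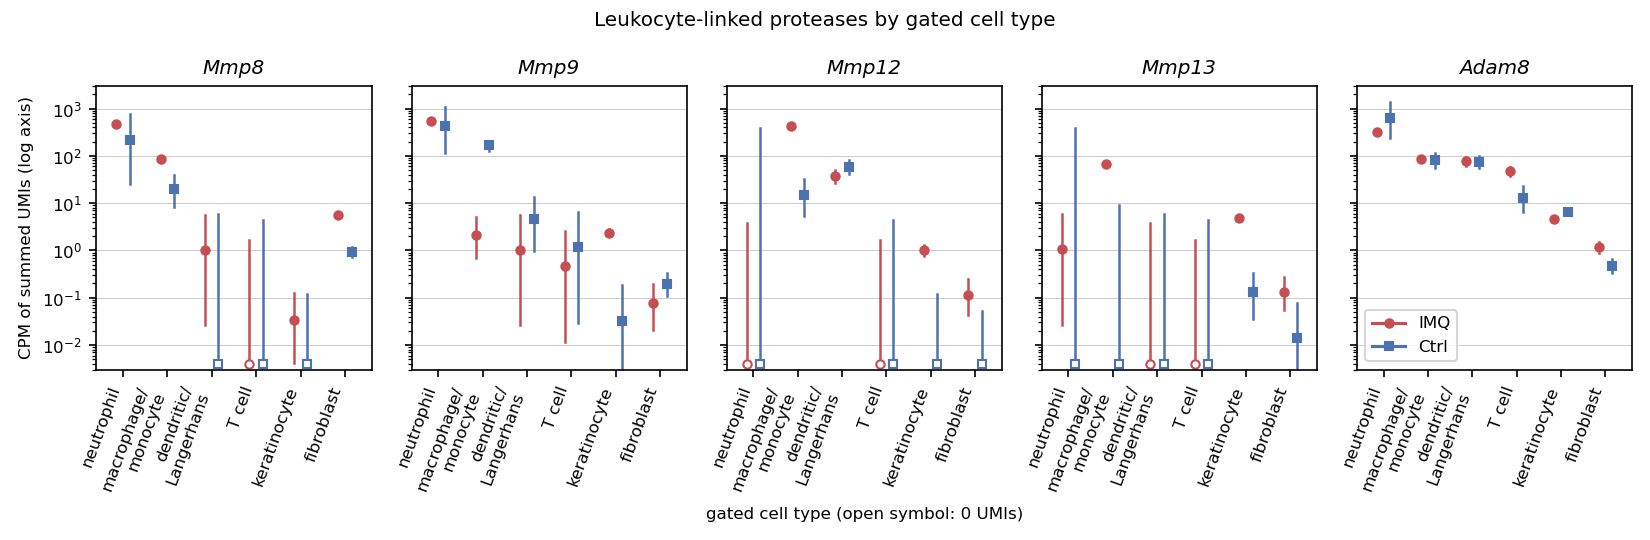
CPM (log axis) of 5 members in 6 gated cell types, IMQ (circles) and Ctrl (squares), with exact 95% counting intervals; open symbols at the foot stand for 0 UMIs. Mmp8 and Mmp9 reached 483 and 555 CPM in IMQ neutrophils, Mmp12 reached 418 CPM in IMQ and 14.7 CPM in Ctrl macrophages and monocytes, and the 5 Ctrl neutrophils give wide intervals.

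Genes that act with these proteases were read from lists drawn up for this purpose. Their counts stand beside 11.2% of all measured genes called higher and 4.46% called lower in fibroblasts, 12.4% and 10.1% in keratinocytes, and 8.04% and 8.19% in pericytes and smooth muscle. With 15 to 24 genes measured in a list, a count of 1 to 3 is near these shares and is no result about the list. Of the activators, clearance receptors and other inhibitors, 3 of 16 were called higher and 2 lower in fibroblasts, and 2 and 4 of 15 in keratinocytes. Pcsk5, a proprotein convertase that can activate precursor proteins, was at 266 CPM in IMQ and 45.3 CPM in Ctrl fibroblasts, and Pcsk6, its relative, at 31.5 and 68.7 CPM. Thbs1 (thrombospondin 1) was at 412 and 91.1 CPM. Of the cathepsins and cystatins, 1 of 16 was called higher and 1 lower in fibroblasts, and 4 and 0 of 15 in keratinocytes. Of the other matrix-acting proteases, 2 of 15 were called higher in fibroblasts, among them Fap, a protease of activated fibroblasts, at 50.1 and 23.5 CPM, and 1 lower. The one called lower was Astn2, which is no protease and is on the list by mistake.

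Of membrane proteins that ADAM10 or ADAM17 are known to release, 2 of 24 were called higher and 1 lower in fibroblasts, and 3 and 5 of 22 in keratinocytes. Hbegf, a ligand of the EGF receptor, was at 18.4 CPM in IMQ and 7.25 CPM in Ctrl fibroblasts. In keratinocytes Ereg, another EGF receptor ligand, was at 24.2 CPM in IMQ and 218 CPM in Ctrl cells, and Il6ra, the interleukin-6 receptor, at 6.43 and 80.1 CPM. Of the matrix substrates, 7 of 22 were called higher and 4 lower in fibroblasts, and 9 and 1 of 19 in pericytes and smooth muscle, where the median log2 ratio was 0.87. Col1a1, Col1a2, Col3a1, Dcn and Lum are on this list and are also markers of the fibroblast gate. Fibroblast markers summed to 2513 CPM in IMQ and 1895 CPM in Ctrl cells of the pericyte and smooth muscle gate, and their part in its count was not tested. Tnc (tenascin C) was at 175 CPM in IMQ and 14.2 CPM in Ctrl fibroblasts, 12.3-fold higher (11.5 to 13.1), and Fbn2 (fibrillin 2) was at 78.6 and 14.0 CPM, 5.64-fold higher (5.26 to 6.05). Col1a2 was at 15080 and 55950 CPM, 3.71-fold lower (3.70 to 3.72). The keratinocyte levels of Col1a1 and Col1a2 were below those that free RNA could give.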

How the data were processed

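The authors deposited, for each library, a gene by cell matrix of UMI counts, raw and not normalized. The header of each matrix names Cell Ranger 5.0.0, while the submitters' processing notes name Cell Ranger 3.0.2, Seurat 2.0 and the build mm10. The lowest barcode holds 500 UMIs. The tables held 9414 IMQ and 10857 Ctrl barcodes with 144054978 and 123088680 UMIs.

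Cells with under 200 genes (558 IMQ and 192 Ctrl) or over 10% mitochondrial UMIs (357 and 368) were removed. A cell took the lineage whose minimum number of markers it passed, minimums set after the marker counts were seen. Cells in several gates (446 IMQ and 468 Ctrl) or none (566 and 588) stayed out of the lineages. Trac, Trbc1, Trbc2, Trdc and Acod1 were on the marker lists but had no row. Scrublet called 1.29% of IMQ and 4.10% of Ctrl cells doublets, against 6.80% and 8.24% expected from cell numbers, and these were removed only in an alternative. UMIs were summed per lineage and library and given as CPM. Counts took exact Poisson intervals and ratios exact conditional binomial intervals. The free RNA share was the median ratio of lineage to library level over markers of unrelated lineages at 50 CPM or more. The code was tested on simulated counts.

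Set to be named in a lineage were all TIMPs, the 5 members with the highest CPM, and called members with at least 100 UMIs and 3 times the free RNA level. Not all of these are given for every lineage. Values of other genes and of lineages not compared were chosen after they were seen. Members and lists were chosen with earlier results of these data known. Gene positions are from GENCODE M21 and promoter windows from RefSeq, both GRCm38. How strand was used in counting is not given in the sources used here, and 13 members, among them Adam17, Adam19, Adamts4, Adamts7, Adamts9, Mmp11, Mmp12, Mmp19, Timp3 and Timp4, overlap a gene on the other strand. Protein motifs were not analysed here, and the counts of the plasminogen system list are not reported here. Python 3.11.15, numpy 2.4.6, scipy 1.17.1, pandas 2.3.3, scanpy 1.11.5 and matplotlib 3.10.9 were used.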

Additional observations from a re-analysis of the deposited data

Results flagged for a closer look

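Picked out were members called in opposite directions in different lineages that met the naming limits for called members both ways. Levels in a lineage that no comparison uses were also picked out. Called in opposite directions without meeting those limits both ways were Timp2, Timp3, Adam19, Adam30, Adamtsl1, Adamtsl4, Mmp2 and Mmp9. Of these, Timp3 was called higher in muscle and satellite cells and lower in keratinocytes and in pericytes and smooth muscle. Adamts17 had a log2 ratio of -1.55 in fibroblasts and 2.12 in keratinocytes. Adamts1 had 1.06 in keratinocytes and -1.70 in pericytes and smooth muscle. Adamts9 had 1.55 in keratinocytes and -1.39 in pericytes and smooth muscle. Adamts5 had 2.74 in keratinocytes, 2.37 in lymphatic endothelium and 1.03 in muscle and satellite cells, and -1.33 in pericytes and smooth muscle. With 1 library per group, none of these differences between lineages was tested.

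Neutrophils, with 259 IMQ and 5 Ctrl cells, enter no comparison. In the IMQ neutrophils Mmp9 was at 555.4 CPM, Mmp8 at 483.1 CPM, Adam8 at 315.4 CPM and Timp2 at 277.7 CPM, above the levels of free RNA.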

How the results depend on the processing

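No paired analysis was possible because each group is 1 library, and no replicate could be left out. Each alternative changed 1 setting, except that the gene and mitochondrial limits were changed together. Of the values recomputed, apart from the splits below, 500 held and 91 moved, and none turned direction. The moves were uneven over the settings. In the shared fibroblast subclusters 14 values moved and 2 held, with Leiden clusters 29 and 39, and with each cell weighted equally 26 and 59. All 85 held when doublets were removed. Where 2-fold was replaced by 1.5-fold, members called lower numbered 7 in fibroblasts, 11 in keratinocytes and 1 in Schwann cells. With size factors they numbered 4 in fibroblasts and 14 over all cells, and 4 over all cells with equal lineage shares. A minimum of 100 UMIs left 7 higher and 4 lower in keratinocytes, 5 higher in pericytes and smooth muscle, 0 higher in Schwann cells, and 1 higher and 0 lower in T cells, while a minimum of 1 UMI gave 3 lower in T cells. In the shared fibroblast subclusters 9 were higher and 0 lower. Lineages from Leiden clusters, in place of marker gates, gave 4 lower in fibroblasts, 15 in keratinocytes, 5 lower and 0 higher in Schwann cells and 14 lower in T cells. Subtraction of free RNA gave 2 higher in Schwann cells and 0 lower in T cells, and removal of the highest cell 0 lower in T cells. With size factors, fibroblast lists had 1 other protease and 4 matrix substrates called higher and 2 shed proteins called lower, and keratinocytes 1 other protease called lower. The cause of these shifts was not tested.

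Splits of the lineages were chosen after seeing the data. Of the values recomputed in them, 31 held, that is, stayed within the counting interval of the whole lineage. Outside it, 90 moved and 6 turned direction. Among members called in the whole lineage, the direction turned for Adamts5 in Rgs5 pericytes (0.052), Adamts9 in suprabasal keratinocytes (-0.68, on 9 IMQ and 20 Ctrl UMIs), Adamtsl2 in fibroblast subclusters 6 and 9 (-0.40 and -1.50), Adamts17 in subcluster 7 (1.11) and Mmp19 in subcluster 9 (-0.14), all as log2 ratios. Not called in the whole lineage but called in the other direction there were Timp3 in subcluster 4 (1.41), Mmp3 in subcluster 6 (-1.16) and Timp2 in suprabasal keratinocytes (-1.14). Depth limits the lineages with under 100 cells, where 2 to 18 members reached 20 UMIs, and no interval covers variation between animals.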

Other observations

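In blood endothelium, which had 120 IMQ and 28 Ctrl cells and was not compared, Adamts4 was at 119 CPM (103 to 136) in IMQ and 651 CPM (533 to 787) in Ctrl cells. Timp3 was at 500 and 1424 CPM, Mmp14 at 121 and 12.3 CPM, and Timp1 at 97.2 and 12.3 CPM, the last 2 on 2 Ctrl UMIs each. Adam15 was at 246 CPM in IMQ and 110 CPM in Ctrl cells.

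Among the 332 IMQ macrophages and monocytes, 26 held a UMI of Mmp12, 14 of Mmp13 and 91 of Mmp8. Of these, 9 cells held both Mmp12 and Mmp13, and 11 held both Mmp12 and Mmp8.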
